A study of Homo sapiens with 9 samples.

Results

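The TNF superfamily ligands described here are 10 genes, TNF, LTA, LTB, FASLG, CD40LG, TNFSF10, CD70, TNFSF8, TNFSF14 and TNFSF4, chosen by symbol from a table of 19569 genes, where each matched 1 row. Their mRNA was measured by RNA sequencing in Jurkat Clone E6-1, an established human leukaemic T-cell line that is a single clone, so the values describe that clone and not T cells at large. The 9 libraries formed 3 groups of 3: control cells without activation (0 h), cells after 5 h of activation, and cells after 12 h. Activation used anti-CD3 antibody coated on the plate at 10 µg/mL and anti-CD28 antibody in the medium at 5 µg/mL. All groups shared the same supplemented culture medium, and no genotype or further agent distinguishes them. Replicates are labelled as biological, but separate cultures are not mentioned, so each p-value reflects the scatter among these libraries alone, part of which may be technical. The study is concerned with miRNAs during T-cell activation, and the comparisons here ask which ligand mRNAs changed in abundance.

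TNF superfamily ligands are mostly type II membrane proteins that assemble as trimers and signal by clustering receptors of the TNF receptor superfamily on a neighbouring cell or, after shedding, at a distance. Some of the receptors carry death domains and can start apoptosis, and others recruit TRAF adaptors and activate NF-kappaB. Activated T cells are a main source of these ligands, which help B cells, license dendritic cells, costimulate other T cells and kill target cells.

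Library totals ran from 4222258 to 9359187 counts. The values below are CPM, counts relative to library sizes that were adjusted with the TMM factors of edgeR. Pairs of replicates differed by 2.87 to 8.92 times the variance of counting noise, so each library counted as 1 replicate. The 12 T-cell markers summed to 5832 to 7051 CPM over all libraries, with none under 1 CPM. Single ones changed: at 5 h CD5, CD28 and LAT were higher and CD3E, CD3G, CD7 and CD4 lower. Those are 3 and 4 of 12, beside 24.9% and 24.8% of all genes. CD3G went from 744 ± 46.3 CPM at 0 h to 356 ± 38.3 at 5 h, and CD5 from 239 ± 20.3 to 732 ± 121.8. Markers of other cells were mostly low, but their sums differed between the groups. The 8 B-cell markers summed to 209 to 261 CPM at 0 h, 110 to 139 at 5 h and 157 to 184 at 12 h, with CD22 at 0 and 5 of 8 under 1 CPM. That sum was mainly CD79A, at 161.3 to 202.6 CPM at 0 h, above every ligand there, and CR2 and BLK had 28.5 ± 4.13 and 21.8 ± 2.43 CPM at 0 h. All 3 were lower at 5 h, and CD79A and CR2 at 12 h. The 9 myeloid markers summed to 6.52 to 9.72, 7.99 to 11.9 and 10.0 to 12.0 CPM, with S100A8 and CD163 at 0 and 7 of 9 under 1 CPM. Of these, CD68 was called higher at 12 h than at 0 h. The 8 NK-cell markers summed to 5.08 to 6.27, 10.3 to 17.2 and 11.9 to 13.4 CPM, with 7 of 8 under 1 CPM. That sum was mainly KLRD1, with 4.87 ± 0.379 CPM at 0 h, 11.2 ± 3.3 at 5 h and 10.1 ± 0.886 at 12 h. KLRD1 was called higher at 5 h and at 12 h than at 0 h. The part of these markers in the results below was not tested. The controls are not time-matched, and so an effect of activation and one of hours in culture cannot be told apart.

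All but 1 of the ligand genes were higher at 5 h than before activation, and 8 of the 10 were lower at 12 h than at 5 h. At 5 h against 0 h, 9 of the 10 were higher and 1, TNFSF4, was lower (edgeR quasi-likelihood test, Benjamini-Hochberg adjusted p under 0.05 over the 12036 genes tested). Of all genes tested, 24.9% were called higher and 24.8% lower in that comparison. At 12 h against 0 h, 6 ligands were higher and 2 lower, beside 26.3% and 24.8% of all genes, and TNF and TNFSF8 were not called. From 5 h to 12 h, 8 ligands were lower and 0 higher, beside 18.0% and 18.1% of all genes. The median log2 fold change of the 10 ligands was 2.28 at 5 h against 0 h, 1.501 at 12 h against 0 h and -1.20 at 12 h against 5 h, where the medians over all genes tested were 0.001, -0.001 and 0.007. The 5 h and 12 h comparisons with 0 h share their control libraries. With total-count scaling, the calls over all genes shifted from 3001 higher and 2984 lower to 2200 and 3899 at 5 h, and from 3160 and 2985 to 2485 and 3899 at 12 h, while the ligand calls stayed as given.

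Levels limit what these counts can say. All 10 ligands passed the filter on low counts, but TNF, LTB, FASLG, CD70 and TNFSF14 had no 0 h library above the filter's level of 1.44 CPM. They passed only through activated libraries, so they had to differ, and neither their number in the counts nor the medians above, which include them, support a general rise. At 12 h TNF had 0 libraries above that level and FASLG 1, against 3 each at 5 h. TNF thus passed only through 5 h, so its fall to 12 h had to appear, and that of FASLG was favoured. Their number among the falls does not support a general fall. In bulk RNA, a change in the share of cells that express a gene and a change in RNA per cell cannot be told apart.

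**Figure D1:**
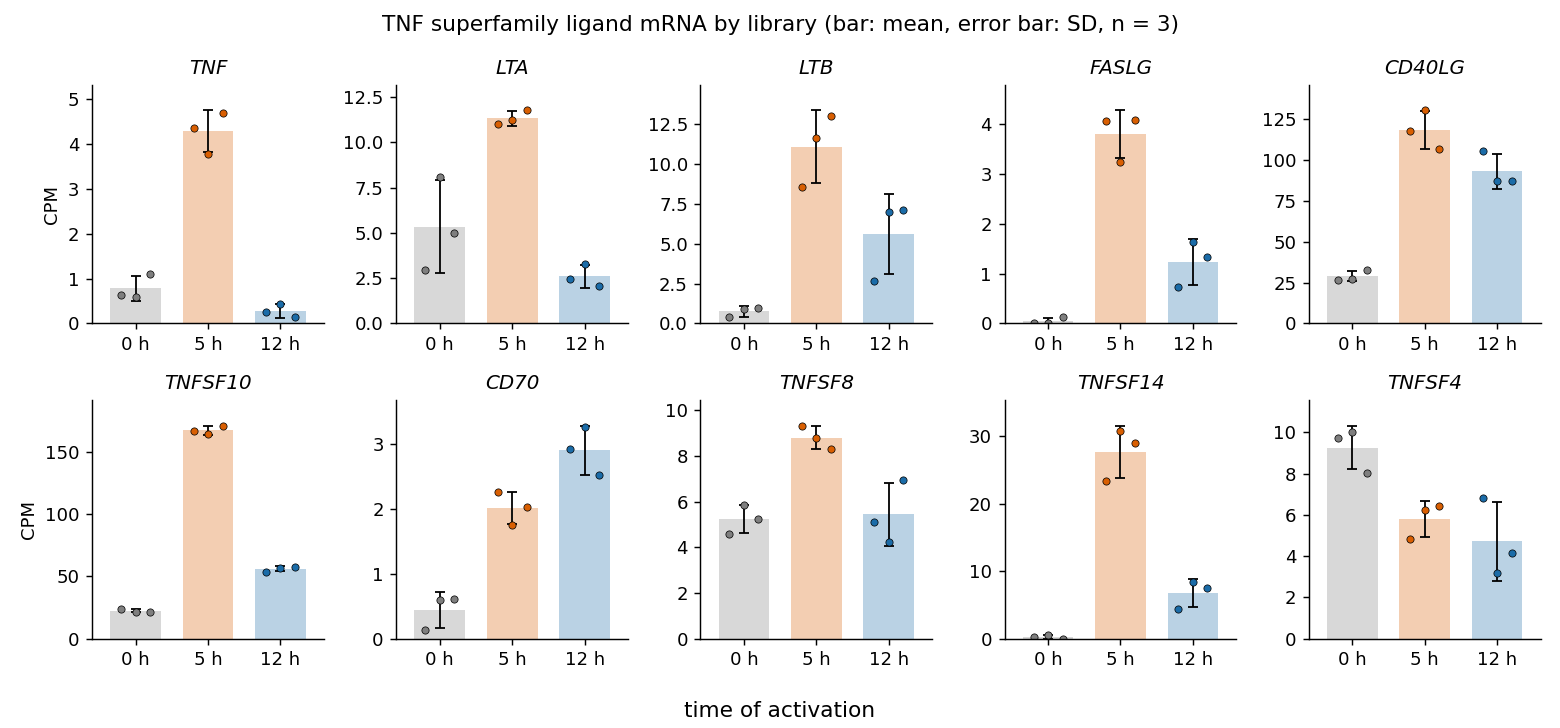
CPM of the 10 ligand genes at 0, 5 and 12 h of activation, each panel with its own linear axis from 0. Points are the 3 libraries of a group, bars their mean and error bars the SD. All panels except CD70 and TNFSF4 peak at 5 h, CD70 is highest at 12 h, and TNFSF4 is highest at 0 h.

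Summed over the 10 genes, ligand mRNA was 73.4 ± 3.56 CPM at 0 h, 360.1 ± 10.1 at 5 h and 178.7 ± 5.07 at 12 h (SD, n = 3). CD40LG and TNFSF10 carried most of the counts. Their joint share of the ligand counts was 69.95% ± 4.47 before activation, 79.3% ± 1.496 at 5 h and 83.4% ± 2.44 at 12 h. TNFSF10 held 46.4% ± 2.01 of the counts at 5 h and CD40LG 32.8% ± 2.62, and at 12 h they held 31.4% ± 1.99 and 52.0% ± 4.42. These shares are not levels per length: the exons of TNFSF10 span 3473 bases and those of CD40LG 1817, and per kb CD40LG was above TNFSF10 in all 3 groups. TNFSF4 went from 12.7% ± 1.74 of the ligand counts at 0 h to 1.61% ± 0.223 at 5 h, while TNFSF14 went from 0.387% ± 0.396 to 7.67% ± 0.908.

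**Figure D2:**
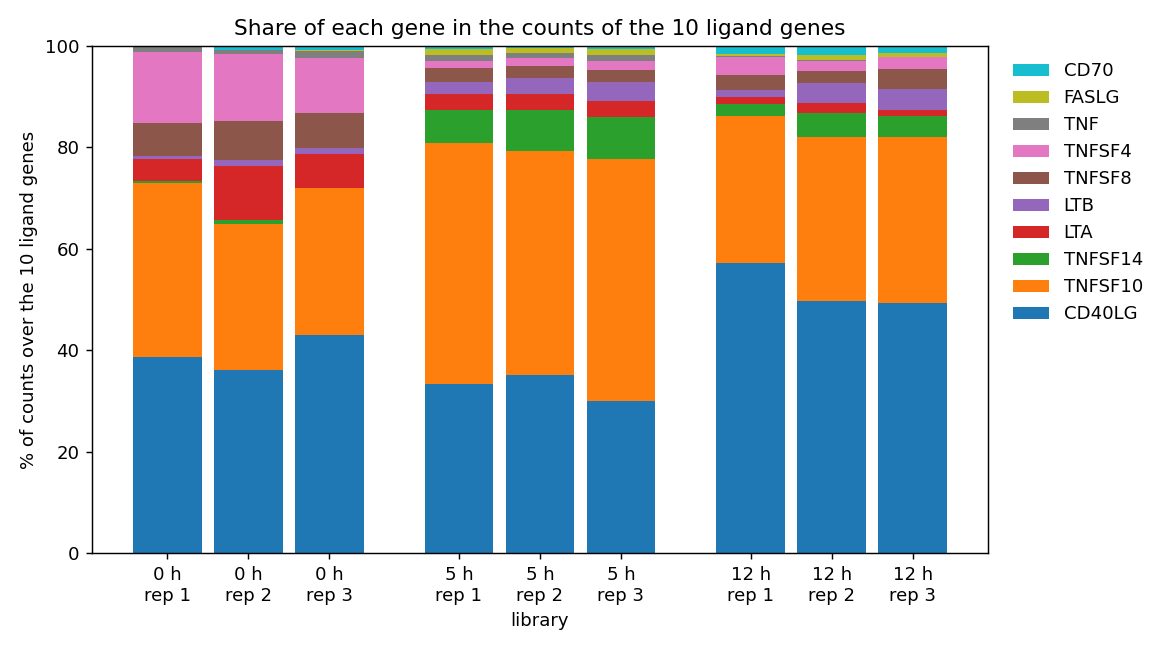
Share of each gene in the counts summed over the 10 ligand genes, in percent, 1 stacked bar per library. CD40LG and TNFSF10 fill between 64.8% and 86.2% of every bar, and the TNFSF4 segment shrinks from at least 10.7% at 0 h to at most 3.70% after activation.

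CD40LG encodes CD40 ligand, through which helper T cells drive B-cell class switching and dendritic-cell maturation. The gene (ENSG00000102245.8, chromosome X, 136648193 to 136660390, forward strand, GRCh38) had 26.9, 27.4 and 32.5 CPM in the 3 libraries at 0 h. It had 118, 130 and 107 CPM at 5 h and 105, 87.1 and 86.9 CPM at 12 h. Every activated library was above every 0 h library. The fitted log2 fold change was 2.03 ± 0.11 (SE) at 5 h (edgeR adjusted p = 5.64e-12) and 1.68 ± 0.12 at 12 h (adjusted p = 2.27e-10). The decline from 5 h to 12 h was 1.27-fold, a log2 change of -0.35 ± 0.10 (adjusted p = 0.0119). It was no longer called without 5 h replicate 2 (-0.27, adjusted p = 0.0879), 12 h replicate 2 (-0.30, adjusted p = 0.0614) or 12 h replicate 3 (-0.30, adjusted p = 0.0622).

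TNFSF10 encodes TRAIL, a death ligand that binds death receptors on tumour and infected cells. The gene (ENSG00000121858.11, chromosome 3, 172505508 to 172523507, reverse strand) had 23.8, 21.7 and 21.7 CPM at 0 h, 167, 164 and 171 CPM at 5 h, and 53.7, 56.6 and 57.8 CPM at 12 h. The libraries of a group lay close together and no groups overlapped. On the log2 scale the rise was 2.90 ± 0.10 at 5 h (edgeR adjusted p = 6.57e-16) and 1.33 ± 0.10 at 12 h (adjusted p = 7.78e-10). From 5 h to 12 h the level fell 2.98-fold (log2 -1.57 ± 0.09, adjusted p = 4.61e-11), where CD40LG fell 1.27-fold. That difference between the genes was not tested. Its promoter, read as the 250 bases before the RefSeq transcript start, is shown because TNFSF10 had the smallest adjusted p of the ligands at 5 h against 0 h. Capitals in this and the promoters below mark the NFAT core motif GGAAA or its reverse complement TTTCC, in GRCh38.p14 and 5′ to 3′ on the gene's strand (chr3:172523431-172523680, reverse strand).
TNFSF10 promoter: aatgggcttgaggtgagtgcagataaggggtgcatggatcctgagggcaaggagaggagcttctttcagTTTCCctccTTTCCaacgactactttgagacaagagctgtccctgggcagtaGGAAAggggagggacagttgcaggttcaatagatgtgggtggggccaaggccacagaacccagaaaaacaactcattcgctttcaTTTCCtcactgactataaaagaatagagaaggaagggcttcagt
The core is the element bound by NFAT, the calcium-dependent factor that T-cell receptor signalling brings to the nucleus. The TNFSF10 window held 4 matches, and 54.5% of 15272 RefSeq promoter windows of this length held at least 1, with a median of 1. A sense-strand TATA box (TATAAA), held by 6.69% of windows, lay 31 to 26 bases before the start. A match describes letters, and binding was not measured.

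FASLG, TNFSF14, LTB and CD70 were near the limit of detection before activation. FASLG encodes Fas ligand, which kills Fas-bearing cells and takes part in activation-induced T-cell death. The gene (ENSG00000117560.8, chromosome 1, 172659018 to 172666874, forward strand) had no count in 2 of the 0 h libraries and 0.122 CPM, a single count, in the third. It had 4.06, 3.24 and 4.07 CPM at 5 h and 0.732, 1.64 and 1.33 CPM at 12 h, so every activated library was above every 0 h library. Over the group, 1 count at 0 h stood against 77 at 5 h, a ratio of 85.6 after scaling (95% counting interval 14.9 to 3423, exact Clopper-Pearson), and against 27 at 12 h, a ratio of 30.6 (5.05 to 1254). Intervals and floors cover counting error only. Both rises were called (edgeR adjusted p = 2.42e-07 and 1.18e-04), and FASLG fell from 5 h to 12 h (log2 -1.50 ± 0.38, adjusted p = 0.00413). Without 0 h replicate 3, the library with the single count, the fitted log2 fold change moved from 5.94 to 7.71 at 5 h and from 4.44 to 6.20 at 12 h, values that then depend on the prior count. The FASLG promoter is shown with that of TNFSF14 because these genes had the largest ratios of 5 h to 0 h among the ligands (chr1:172658853-172659102, forward strand, and chr19:6670161-6670410, reverse strand).
FASLG promoter: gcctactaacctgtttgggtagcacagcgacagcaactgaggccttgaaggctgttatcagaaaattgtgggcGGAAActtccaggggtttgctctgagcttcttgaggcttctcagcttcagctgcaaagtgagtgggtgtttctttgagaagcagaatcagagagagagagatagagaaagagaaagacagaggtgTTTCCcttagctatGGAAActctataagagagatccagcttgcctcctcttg
TNFSF14 promoter, first listed start: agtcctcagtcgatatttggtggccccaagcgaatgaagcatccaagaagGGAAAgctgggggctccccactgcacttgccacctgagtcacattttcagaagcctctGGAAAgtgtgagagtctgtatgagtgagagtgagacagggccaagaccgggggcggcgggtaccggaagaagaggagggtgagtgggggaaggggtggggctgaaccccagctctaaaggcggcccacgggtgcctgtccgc
FASLG held 3 matches of the NFAT core and TNFSF14 held 2. TNFSF14 also held an AP-1 match (TGANTCA, here TGAGTCA), which 5.02% of windows do, and a match of the NF-kappaB consensus (GGGGCTCCCC), which 5.69% do. The second listed start of TNFSF14 gave the same matches.

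TNFSF14 encodes LIGHT, a costimulatory ligand of herpesvirus entry mediator and of the lymphotoxin-beta receptor. The gene (ENSG00000125735.11, chromosome 19, 6661253 to 6670588, reverse strand) had 0.256, 0.598 and 0 CPM at 0 h, 23.3, 30.7 and 28.98 CPM at 5 h, and 4.39, 8.40 and 7.55 CPM at 12 h. All 3 groups were separate, and the lowest 12 h library was the shallowest of the 9. From 6 counts at 0 h to 567 at 5 h the ratio was 105 (47.95 to 287), and to 146 counts at 12 h it was 27.6 (12.4 to 76.4). In log2 terms the rise was 6.62 ± 0.36 at 5 h (edgeR adjusted p = 4.54e-12) and 4.66 ± 0.45 at 12 h (adjusted p = 4.05e-08), and the fall between them was 4.08-fold (log2 -1.96 ± 0.21, adjusted p = 8.33e-07). The 5 h value moved to 7.59 without 0 h replicate 2 and to 6.00 without 0 h replicate 3, and the 12 h value to 5.65 and 4.05.

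CD70 encodes the ligand of CD27, a costimulatory pair that supports survival of activated T and B cells. The gene (ENSG00000125726.11, chromosome 19, 6583183 to 6604103, reverse strand) lies 66.5 kb from TNFSF14, start to start. It had 0.128, 0.598 and 0.610 CPM at 0 h, 2.26, 1.76 and 2.04 CPM at 5 h, and 2.93, 3.27 and 2.52 CPM at 12 h. It was the only one of the 10 ligands whose mean was higher at 12 h than at 5 h. Against 0 h the log2 fold change was 2.15 ± 0.49 at 5 h (edgeR adjusted p = 0.00106) and 2.68 ± 0.46 at 12 h (adjusted p = 6.39e-05). Although the 5 h and 12 h libraries did not overlap, the difference between them was not called (log2 0.54, 95% interval -0.21 to 1.29, edgeR adjusted p = 0.257), on 41 and 59 counts.

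TNF, LTA and LTB lie side by side in the major histocompatibility complex on chromosome 6. Their 3 products overlap in function: TNF is the founding inflammatory cytokine of the family, LTA is the secreted lymphotoxin-alpha that shares its receptors, and LTB anchors LTA at the membrane as a heterotrimer that signals through the lymphotoxin-beta receptor. All 3 rose at 5 h and then parted. By 12 h LTB was still above its 0 h level, LTA was below it, and TNF was not called. The TNF and LTB promoters are shown because these neighbouring genes both rose at 5 h and differed in level against 0 h at 12 h (chr6:31575315-31575564, forward strand, and chr6:31582426-31582675, reverse strand).
TNF promoter: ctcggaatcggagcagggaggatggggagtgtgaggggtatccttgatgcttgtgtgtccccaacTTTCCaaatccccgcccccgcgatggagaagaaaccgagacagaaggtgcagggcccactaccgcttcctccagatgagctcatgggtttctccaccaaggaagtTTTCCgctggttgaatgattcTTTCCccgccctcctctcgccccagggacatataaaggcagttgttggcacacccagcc
LTB promoter, first listed start: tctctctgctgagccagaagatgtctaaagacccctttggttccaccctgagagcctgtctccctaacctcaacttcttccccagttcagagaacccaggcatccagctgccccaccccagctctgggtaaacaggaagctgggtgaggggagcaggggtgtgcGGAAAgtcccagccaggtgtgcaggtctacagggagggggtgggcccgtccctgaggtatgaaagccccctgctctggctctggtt
The TNF window held 3 matches of the NFAT core and a sense-strand TATA box 29 to 24 bases before the start, and no match of the NF-kappaB consensus. The LTB window held 1 core match, which overlaps an NF-kappaB match (GGAAAGTCCC). LTA has 2 listed starts with 2 core matches each, and the second also held an NF-kappaB match (GGGGCTTCCC) and a TATA box.

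TNF (ENSG00000232810.4, 31575567 to 31578336, forward strand) had 0.639, 0.598 and 1.10 CPM at 0 h, 4.36, 3.78 and 4.70 CPM at 5 h, and 0.244, 0.436 and 0.148 CPM at 12 h. No groups overlapped, and every 12 h library was below every 0 h library, but these levels rest on 18, 87 and 6 counts in all. TNF rose by 2.41 ± 0.38 on the log2 scale at 5 h (edgeR adjusted p = 2.42e-05). From 5 h to 12 h the level fell 15.5-fold (log2 -3.76 ± 0.47, adjusted p = 4.53e-06), the largest fall of the 10 ligands. Without 12 h replicate 2 that value was -4.40. TNF passed the filter on low counts only through its 5 h libraries, so a fall from 5 h had to appear. Against 0 h the 12 h value was -1.36 (95% interval -2.64 to -0.07) and was not called (edgeR adjusted p = 0.0727). Without 12 h replicate 2 it was -1.99 (adjusted p = 0.0599), and without 0 h replicate 3 it was -1.02 (adjusted p = 0.254). limma on the deposited log2 values did call it (log2 -1.15, adjusted p = 0.0247).

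LTA (ENSG00000226979.9, 31572054 to 31574324, forward strand) had 2.94, 8.07 and 5.00 CPM at 0 h, a wide spread. It had 10.98, 11.2 and 11.8 CPM at 5 h and 2.44, 3.27 and 2.07 CPM at 12 h. The 5 h libraries stood above all others, while the 0 h and 12 h libraries overlapped. The log2 fold change was 1.10 ± 0.26 at 5 h (edgeR adjusted p = 0.00163), and the fall from 5 h to 12 h was 4.36-fold (log2 -2.08 ± 0.30, adjusted p = 2.29e-05). The 12 h level was below that at 0 h (log2 -0.98 ± 0.32, edgeR adjusted p = 0.0158), a call lost without 0 h replicate 2 (-0.58, adjusted p = 0.146) or 12 h replicate 3 (-0.82, adjusted p = 0.0721).

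LTB (ENSG00000227507.3, 31580525 to 31582522, reverse strand) had 0.384, 0.897 and 0.976 CPM at 0 h, 8.57, 11.6 and 13 CPM at 5 h, and 2.68, 6.98 and 7.11 CPM at 12 h. The groups were separate, with the low 12 h value in the shallowest library. The rise on the log2 scale was 3.85 ± 0.38 at 5 h (edgeR adjusted p = 3.94e-08) and 2.95 ± 0.41 at 12 h (adjusted p = 4.74e-06). The fall from 5 h to 12 h was 1.98-fold (log2 -0.90 ± 0.28, adjusted p = 0.0147) and was not called without 5 h replicate 3 (-0.78, adjusted p = 0.0712).

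No other gene around this cluster was called higher at 5 h by as much as its 3 ligands. Of 16 other genes of the table that start within 100 kb of TNF, 15 were tested, and 4 were higher and 5 lower at 5 h, beside 24.9% and 24.8% of all genes. The largest called changes were falls: LST1, a leukocyte gene whose start is 3.6 kb from that of LTB, went from 2.70 ± 0.580 to 0.768 ± 0.306 CPM (log2 -1.76, edgeR adjusted p = 0.00205), and ATP6V1G2, a proton-pump subunit gene, from 2.88 ± 0.235 to 0.863 ± 0.375 CPM (log2 -1.69, adjusted p = 0.00138). GPANK1 (-0.82), AIF1 (-0.47) and C6orf47 (-0.41) were also lower. LST1 was under the filter's level of 1.44 CPM after activation, with a mean of 0.846 ± 0.389 CPM at 12 h. It passed only through the 0 h libraries, so its falls had to appear. The genes called higher, DDX39B (0.33), PRRC2A (0.37), BAG6 (0.31) and CSNK2B (0.22), changed by less than any of the 3 ligands. At 12 h, PRRC2A (0.70) and BAG6 (0.40) were higher, and LST1 (-1.72), NCR3 (-1.90), a natural cytotoxicity receptor gene, AIF1 (-0.35) and LY6G5B (-0.37) were lower. ENSG00000263020 varied widely, with 4.70 ± 4.50 CPM at 0 h, 8.53 ± 4.89 at 5 h and 2.14 ± 1.93 at 12 h. Its 5 h value of 0.91, near that of LTA, was not called (edgeR adjusted p = 0.225). From 5 h to 12 h it was lower (-2.175, edgeR adjusted p = 0.023). In that comparison 4 of the 15 were higher and 1 lower, beside 18.1% and 18.0% of all genes. The 5 h calls of C6orf47 and CSNK2B and the 12 h calls of NCR3, AIF1 and LY6G5B were each lost without single libraries, with adjusted p up to 0.196. With total-count scaling the 5 h calls of BAG6 (0.19, adjusted p = 0.0807) and CSNK2B (0.098, adjusted p = 0.38) were lost. The call of C6orf47 was lost in DESeq2 (adjusted p = 0.0951), and that of CSNK2B without the filter on low counts (0.0667), with the replicate block (0.0581) and in limma (0.0503). Near CD70 and TNFSF14 on chromosome 19, the ligand gene TNFSF9 was higher at 5 h (0.94) and GPR108 at 5 h (0.67) and 12 h (0.80). CD40LG, FASLG, TNFSF8 and TNFSF4 had no other gene of the table starting within 100 kb.

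**Figure D3:**
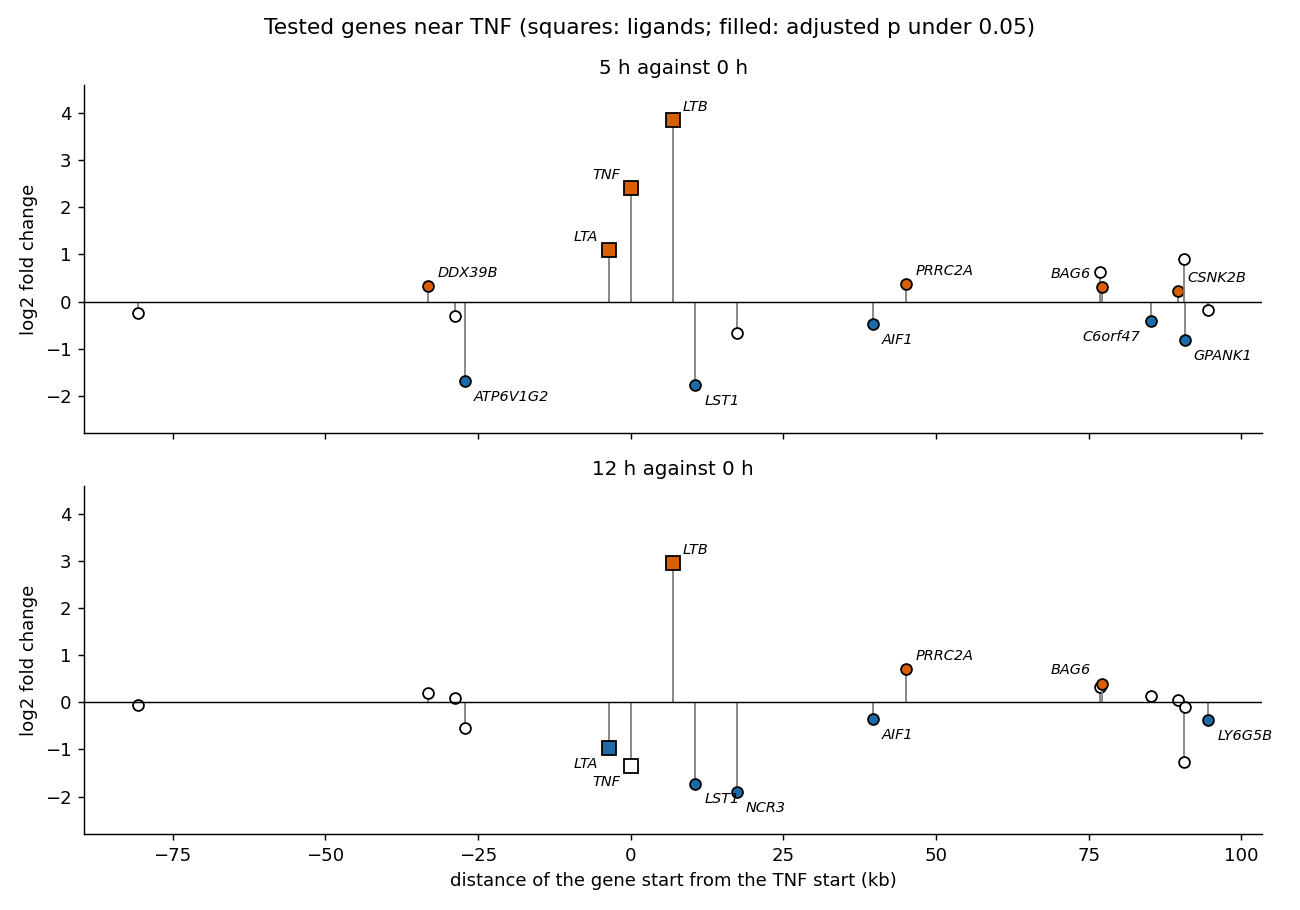
Fitted log2 fold change at 5 h and 12 h against 0 h of the tested genes that start within 100 kb of TNF, by distance of their start from that of TNF in kb. Squares are ligand genes, circles other genes, and filled symbols have an adjusted p under 0.05. LTA, TNF and LTB stand above their neighbours at 5 h, and LTB alone at 12 h, when LTA is at -0.98 and TNF at -1.36.

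TNFSF8 showed the smallest rise of the ligands at 5 h, and TNFSF4 was the only one lower at that time. TNFSF8 encodes CD30 ligand, which signals to CD30 on activated lymphocytes. Its gene (ENSG00000106952.8, chromosome 9, 114893343 to 114930595, reverse strand) had 4.602, 5.83 and 5.25 CPM at 0 h, 9.32, 8.78 and 8.30 CPM at 5 h, and 5.13, 4.25 and 6.96 CPM at 12 h. The 5 h libraries were above all others, and the 0 h and 12 h libraries overlapped. The log2 fold change at 5 h was 0.76 ± 0.22 (edgeR adjusted p = 0.00766). At 12 h against 0 h it was 0.05 (95% interval -0.44 to 0.55, adjusted p = 0.87), with a sign that turned with total-count scaling (-0.055), without 0 h replicate 1 (-0.03) and without 12 h replicate 3 (-0.18). The fall from 5 h to 12 h (log2 -0.70 ± 0.23, adjusted p = 0.0199) was lost without 5 h replicate 1 (-0.66, adjusted p = 0.0599), without 12 h replicate 2 (-0.51, adjusted p = 0.131) and in DESeq2 (-0.70, adjusted p = 0.0551). DEC1 overlaps TNFSF8 on the opposite strand and is not a row of the table, and the use of strand in counting is not given, so reads of the pair may be mixed.

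TNFSF4 encodes OX40 ligand, a costimulator best known from antigen-presenting cells and also made by activated T cells. The gene (ENSG00000117586.11, chromosome 1, 173183734 to 173207313, reverse strand) had 9.72, 10.0 and 8.05 CPM at 0 h, 4.81, 6.22 and 6.42 CPM at 5 h, and 6.83, 3.16 and 4.15 CPM at 12 h. Every activated library was below every 0 h library, and the 5 h and 12 h libraries overlapped. The log2 fold change was -0.67 ± 0.24 at 5 h (edgeR adjusted p = 0.0257) and -1.07 ± 0.25 at 12 h (adjusted p = 0.00146), and the difference of 12 h from 5 h was not called (-0.40, 95% interval -0.96 to 0.16, adjusted p = 0.258). The 5 h call was lost without 0 h replicate 1 (-0.63, adjusted p = 0.0668), 0 h replicate 2 (-0.62, adjusted p = 0.0757) or 5 h replicate 1 (-0.55, adjusted p = 0.0994), and in DESeq2 (-0.67, adjusted p = 0.0618). Its promoter is shown as that of the 1 ligand lower at 5 h against 0 h (chr1:173205533-173205782, reverse strand), and it held 1 NFAT core match. This window lies before the RefSeq start but inside the gene positions given above, which come from another annotation.
TNFSF4 promoter: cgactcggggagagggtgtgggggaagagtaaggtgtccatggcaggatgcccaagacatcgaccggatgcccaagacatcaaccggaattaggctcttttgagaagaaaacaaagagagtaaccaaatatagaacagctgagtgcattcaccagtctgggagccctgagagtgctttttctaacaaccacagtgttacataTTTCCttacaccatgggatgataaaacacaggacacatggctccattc

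**Figure D4:**
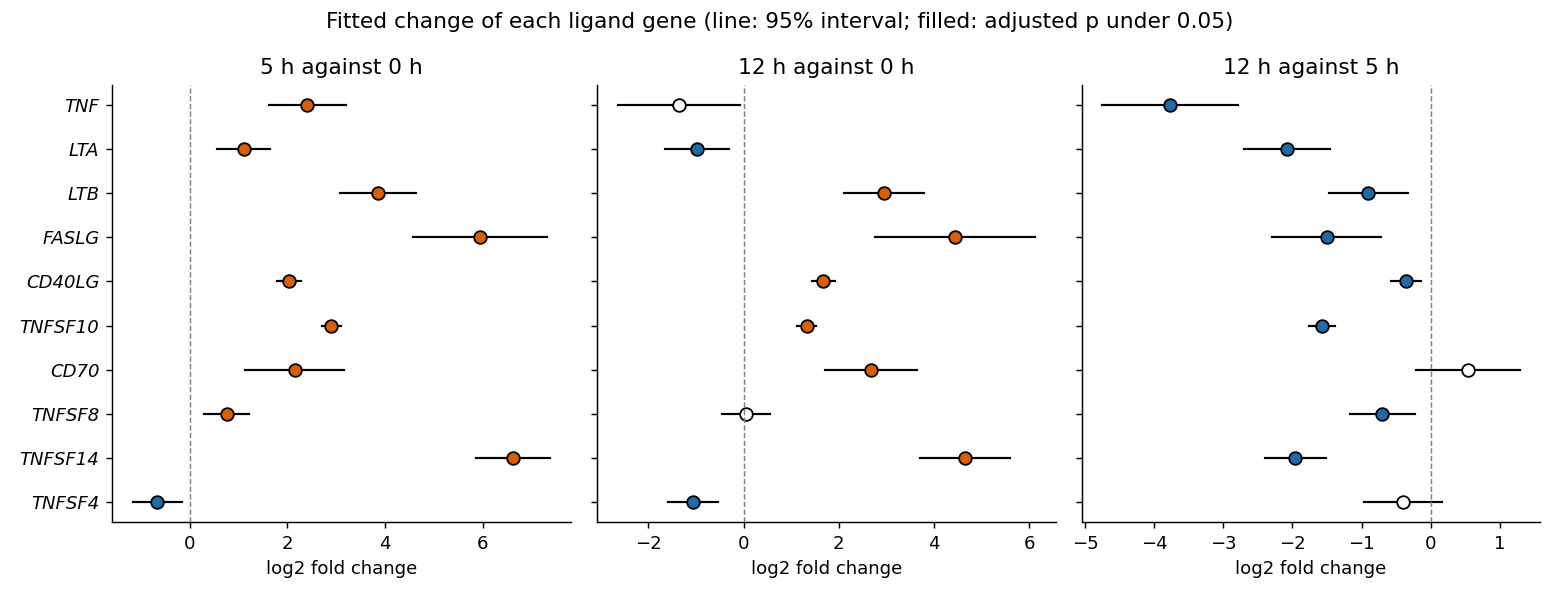
Fitted log2 fold change of each ligand gene in the 3 comparisons, with its 95% interval as a line. Filled points have an adjusted p under 0.05, open points do not. At 5 h against 0 h the points to the right of 0 run from TNFSF8 at 0.76 to TNFSF14 at 6.62, and at 12 h against 5 h every filled point lies to the left of 0.

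To compare levels between genes, CPM was divided by the length of the gene's exons in kb (GENCODE release 29). CD40LG was first in every group, with 15.9 ± 1.70 CPM per kb at 0 h, 65.1 ± 6.45 at 5 h and 51.3 ± 5.85 at 12 h, and TNFSF10 second, with 6.45 ± 0.347, 48.1 ± 0.993 and 16.1 ± 0.602. Neither overlapped the next gene in the order in any group. At 0 h the order went on with LTA (3.07 ± 1.49 CPM per kb) and TNFSF4 (2.35 ± 0.269), which overlapped, then TNFSF8 (1.80 ± 0.211). LTB, TNF, CD70, TNFSF14 and FASLG followed at 0.490 or less, each overlapping its neighbour. At 5 h, LTB (7.21 ± 1.48), LTA (6.51 ± 0.228) and TNFSF14 (5.79 ± 0.808) overlapped in turn, TNFSF8, TNF and FASLG stood apart at 3.03, 2.56 and 2.01, and TNFSF4 and CD70 overlapped at the end. At 12 h the genes from LTB (3.64 ± 1.64) through CD70, TNFSF8, LTA, TNFSF14 and TNFSF4 to FASLG (0.653 ± 0.244) each overlapped the next, and TNF was last and separate at 0.165 ± 0.0875. TNFSF4 thus went from the fourth place to the ninth between 0 h and 5 h while LTB went from the sixth to the third.

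AU-rich elements in the 3′ untranslated region are known to shorten the life of cytokine mRNAs, and the nonamer TTATTTATT is their best-studied core. It occurs in the longest annotated 3′ untranslated region of 9.63% of 11949 tested genes, and in those of TNF, LTA and CD40LG among the ligands. The TNF region of 799 bases held 5 copies, counting overlapping ones, and those of LTA (631 bases) and CD40LG (975 bases) 1 each. Among genes with a region of similar length, 5.59%, 4.15% and 6.31% held a copy. A 30-base stretch is shown for each, with nonamers in capitals, written as DNA. It surrounds the nonamer in LTA and CD40LG. The TNF stretch starts with a run of overlapping copies and is cut after 30 bases, so it does not hold all 5 copies in full.
TNF, bases 463 to 492: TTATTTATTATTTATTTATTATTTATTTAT
LTA, bases 373 to 402: aaaaattaaaTTATTTATTtatggaggatg
CD40LG, bases 928 to 957: aattatcttgTTATTTATTttttgaataat
Of the genes with a nonamer, TNF fell by 3.76, LTA by 2.08 and CD40LG by 0.35 on the log2 scale from 5 h to 12 h. TNFSF14 (-1.96), TNFSF10 (-1.57), FASLG (-1.50), LTB (-0.90) and TNFSF8 (-0.70) were lower too and have no copy. CD70 and TNFSF4, also without a copy, were not called. The shorter pentamer ATTTA was densest in TNF, with 11.3 per kb, against a median of 1.67 over tested genes, and LTB held none. mRNA stability was not measured, and a part of these elements in the falls was not tested.

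Among genes for proteins that bind these and other elements of cytokine mRNAs, some mRNAs were higher and some lower. Of 12 tested, 6 were higher and 4 lower at 5 h, beside 24.9% and 24.8% of all genes, and 5 were higher and 5 lower at 12 h, beside 26.3% and 24.8%. The decay factor gene ZFP36L1 rose from 40.4 ± 6.74 to 651 ± 21.1 CPM at 5 h (log2 4.01, edgeR adjusted p = 7.38e-17) and stood at 323 ± 28.9 CPM at 12 h. ZC3H12A, the endonuclease Regnase-1, and ZFP36, tristetraprolin, rose by 2.80 and 1.18 on the log2 scale at 5 h and by 2.08 and 0.75 at 12 h. ZFP36L2, of the same family, fell by 1.46 and 1.10, TIA1 by 0.36 and 0.42, and HNRNPD by 0.31 and 0.67. The 5 h call of HNRNPD was lost without 0 h replicate 1 (-0.20, adjusted p = 0.118) or 5 h replicate 1 (-0.27, adjusted p = 0.0691).

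Among transcription factors known to act on ligand genes, more were called higher than lower. Of 20, 12 were higher and 1 lower at 5 h, and 14 were higher and 0 lower at 12 h in edgeR, where all genes gave 24.9% and 24.8%, and 26.3% and 24.8%. The EGR factors, immediate-early zinc-finger proteins that bind the FASLG and CD40LG genes, changed most. At 5 h EGR2 rose by 7.45, EGR3 by 6.60 and EGR1 by 6.43 on the log2 scale, and at 12 h EGR2 by 5.28, EGR1 by 5.14 and RELB, a non-canonical NF-kappaB subunit, by 4.73 (edgeR adjusted p at most 1.26e-12 for each). EGR3 was called higher at 12 h too, and RELB at 5 h. EGR2, FOS and LITAF had no 0 h library above the filter's level of 1.44 CPM, EGR3 had 1 and RELB 2. These genes passed only with activated libraries, so their number in the counts does not support a general rise. AKNA, described as binding the promoters of CD40 and its ligand, was the 1 gene lower at 5 h (-0.35, adjusted p = 0.00352). By 12 h AKNA was called higher than at 0 h and at 5 h, with 251 ± 13.6 CPM at 0 h, 197 ± 13.1 at 5 h and 296 ± 26.35 at 12 h. From 5 h to 12 h, 10 of the 20 were lower and 3 higher, beside 18.0% and 18.1% of all genes.

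The receptors through which these ligands act moved in patterns of their own, in part opposite to those of their ligands. Of 15 receptor genes 9 were tested, and 6 were higher and 1 lower at 5 h and again at 12 h. The shares over all genes were 24.9% and 24.8%, and 26.3% and 24.8%. TNFRSF1B and TNFRSF4 each had only 2 libraries at 0 h above the filter's level of 1.44 CPM and passed only with activated libraries. Their number in the counts does not support a general rise. CD27, the receptor of CD70, rose from 6.97 ± 1.96 CPM at 0 h to 93.2 ± 13.4 at 5 h and 173 ± 16.9 at 12 h (log2 3.73 and 4.63, edgeR adjusted p = 6.16e-14 and 2.53e-15). Both partners had their highest mean at 12 h. From 5 h to 12 h CD27 was called higher, but CD70 was not (edgeR adjusted p = 0.257). TNFRSF4, the receptor OX40, rose from 1.86 ± 0.622 to 51.0 ± 14.5 and 48.8 ± 4.34 CPM (log2 4.74 and 4.69, adjusted p = 1.46e-12 and 3.17e-12), while its ligand gene TNFSF4 fell. TNFRSF14, the herpesvirus entry mediator, went the other way from its ligand gene TNFSF14, from 16.3 ± 2.53 to 8.64 ± 1.76 and 11.4 ± 0.849 CPM (log2 -0.91 and -0.50, adjusted p = 2.54e-04 and 0.0198). The 12 h call of TNFRSF14 was lost without 0 h replicate 2 (-0.45, adjusted p = 0.0673), without 0 h replicate 3 (-0.42, adjusted p = 0.0881) and in DESeq2 (-0.50, adjusted p = 0.0572).

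TNF has a pair of receptors, and both were tested. TNFRSF1B, which lacks a death domain, rose from 1.88 ± 0.854 to 54.3 ± 4.49 CPM at 5 h and 63.8 ± 8.004 at 12 h (log2 4.80 and 5.04, edgeR adjusted p = 3.96e-14 and 2.49e-14). TNFRSF1A, which carries one, had 109.7 ± 17.2, 119 ± 4.15 and 133.8 ± 15.8 CPM and was called only at 12 h (log2 0.29, adjusted p = 0.0317). That call was lost without 0 h replicate 1 (0.18, adjusted p = 0.187), 0 h replicate 2 (0.31, adjusted p = 0.0585) or 12 h replicate 2 (0.19, adjusted p = 0.188), and with total-count scaling (0.18, adjusted p = 0.178). The death receptors of FASLG and TNFSF10 rose as well, FAS by 0.70 and 0.62 and TNFRSF10B by 0.96 and 0.97 on the log2 scale at 5 h and 12 h (edgeR adjusted p at most 1.5e-04). TNFRSF8, the receptor CD30, was higher at 5 h (0.39, adjusted p = 0.013), a call lost without any 1 of 0 h replicates 1 and 2 and 5 h replicates 2 and 3 (adjusted p 0.0588 to 0.0641) and with total-count scaling (0.27, adjusted p = 0.0805). CD40 and LTBR, receptors of CD40LG and of LTB, had group means of at most 0.163 CPM, near the floor of 3 counts over a group, which is 0.132 CPM at 0 h, 0.147 at 5 h and 0.150 at 12 h. TNFRSF10A and the decoys TNFRSF10C and TNFRSF10D were at most 0.261 CPM, and TNFRSF11B, a soluble decoy of TNFSF10, had no count in any library.

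**Figure D5:**
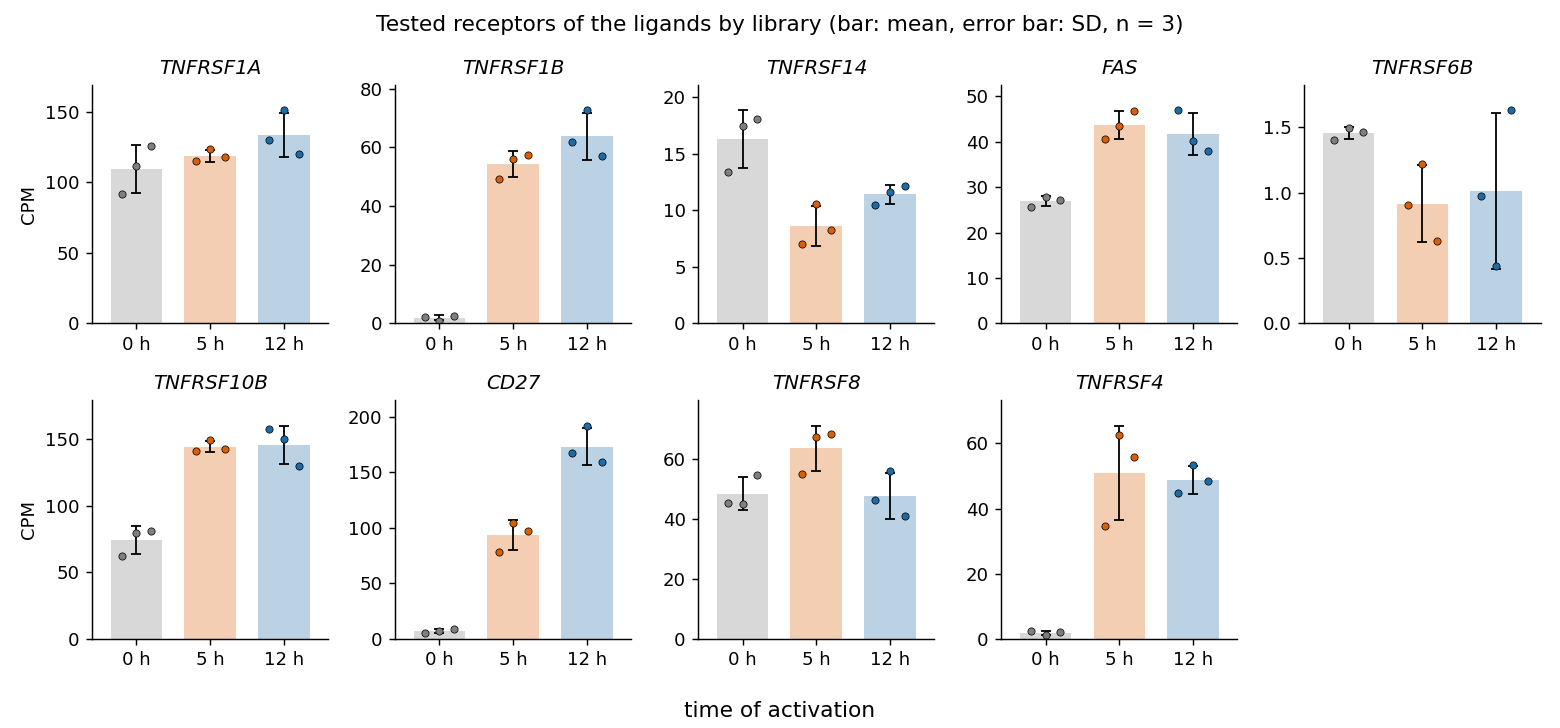
CPM of the 9 tested receptor genes at 0, 5 and 12 h, each panel with its own linear axis from 0. Points are the 3 libraries of a group, bars their mean and error bars the SD. TNFRSF1B, CD27 and TNFRSF4 go from single-digit values at 0 h to 34.7 CPM or more in every activated library, while the TNFRSF14 bars drop after activation.

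Downstream of the receptors, 18 of 38 adaptor and death-domain signalling genes were higher and 7 lower at 5 h, and 15 were higher and 8 lower at 12 h, beside 24.9% and 24.8%, and 26.3% and 24.8%, of all genes. The NF-kappaB-induced regulators rose most. BIRC3, an inhibitor-of-apoptosis ligase, went from 33.4 ± 3.25 to 708 ± 56.0 CPM at 5 h and 333 ± 32.3 at 12 h (log2 4.41 and 3.32), TRAF1, an adaptor, from 9.002 ± 1.49 to 173.5 ± 6.57 and 110.6 ± 8.13 (4.27 and 3.62), and TNFAIP3, the deubiquitinase A20, rose by 2.84 and 2.39 on the log2 scale. TRAF3IP3 (-2.02 and -1.24), SIVA1 (-1.14 and -1.13), which binds CD27, and SHARPIN (-0.83 at 5 h), part of the linear ubiquitin ligase, were lower. SHARPIN was called lower at 12 h too. RIPK1, the kinase of the TNF receptor complex, was lower at 12 h (-1.28, edgeR adjusted p = 9.57e-09).

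Of 13 tested genes for shedding and trafficking of ligands, 7 were higher and 4 lower at 5 h, and 4 were higher and 4 lower at 12 h, close to the 26.3% and 24.8% of all genes. At 5 h those were 24.9% and 24.8%. ADAM17, the sheddase that releases soluble TNF, rose from 52.8 ± 1.91 to 129 ± 8.14 CPM at 5 h and 92.6 ± 8.78 at 12 h (log2 1.29 and 0.81, edgeR adjusted p = 4.87e-10 and 7.49e-07). FNBP1 (0.79 at 5 h), RAB27A (0.68 and 0.48), a GTPase of lytic granule release, and STX4 (0.56 at 12 h) were higher. FNBP1 was called higher at 12 h too, and STX4 at 5 h. UNC13D (-0.60 and -0.35), which primes those granules, SPPL2B (-0.58 and -0.32), an intramembrane protease of TNF, SNAP23 (-0.50 at 5 h) and FRMD8 (-0.39 at 12 h) were lower. SNAP23 was called lower at 12 h too. At 12 h the calls of STX4 and UNC13D were lost without 0 h replicate 2 (adjusted p = 0.0596 and 0.0632), that of STX4 also without 12 h replicate 2 (0.0883), and that of SPPL2B without any 1 of 0 h replicates 2 and 3 and 12 h replicates 1 and 3 (0.0691 to 0.182). Without 0 h replicate 2 the count at 12 h was 3 higher and 2 lower.

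Of the 8 further ligand genes of the superfamily, 5 were tested. TNFSF15, a costimulator of T cells, rose from 0.832 ± 0.0761 to 5.64 ± 1.29 CPM at 5 h and 2.02 ± 0.524 at 12 h (log2 2.72 and 1.32, edgeR adjusted p = 2.4e-06 and 0.0109), the same up-and-down course as most of the 10. It too had no 0 h library above the filter's level and passed only through activated libraries, so it had to differ. TNFSF9, another costimulator, was higher at 5 h (0.94, adjusted p = 0.00327), and TNFSF13B, the B-cell survival factor BAFF (1.02), and EDA, ectodysplasin (0.65), at 12 h. All 3 of the 12 h calls were lost without 12 h replicate 2 (adjusted p 0.0702 to 0.105). That of TNFSF13B was also lost without 0 h replicate 2 (0.0536), 0 h replicate 3 (0.0722) or 12 h replicate 1 (0.0583), and in DESeq2 (0.0542). The EDA call was also lost without 0 h replicate 1 (0.0639).

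The genes most like each ligand over the 9 libraries were named by Pearson's r of log2 CPM, as a description, since the libraries fall into 3 groups and any pair of genes with the same steps between groups gives a high r. TNFSF10 was closest to BHLHE40 (0.999), a transcription factor gene, to NFKBIA (0.999), the inhibitor of NF-kappaB, and to SPRY1 (0.998). NFKBIA went from 21.4 to 161 and 57.0 CPM, close to TNFSF10 in all 3 groups. CD40LG was closest to FAAH (0.998), ADORA2B (0.995) and STARD3NL (0.995), and TNFSF14 to NEDD9 (0.991), TAGAP (0.986) and RAB27A (0.981). LTB was closest to SYTL3 (0.983), SAMD4B (0.979) and CGA (0.978), LTA to KTI12 (0.970), BYSL (0.968) and ZNF251 (0.965), and TNFSF8 to SCML2 (0.943), LTV1 (0.941) and POLB (0.938). TNFSF4, the ligand lower at 5 h, was closest to ABHD17C (0.980), MANEA (0.972) and CENPS (0.959). TNF, FASLG and CD70 had no group mean of 5 CPM and were left out.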

How the data were processed

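Per the submitters' processing notes, cutadapt, RSEM and DESeq2 were used with the build GRCh38.p13. Roles and versions of these tools, the annotation release and any strand setting were, for these tables, not given in the sources used here. A RealSeq kit turned total RNA into libraries, according to the labels' protocols. The authors deposited whole-number counts per Ensembl gene, which may be rounded RSEM estimates, and log2 expression values. In the log2 table, which holds the 12692 genes with a count in all 9 libraries, a value is the log2 of 1 plus the count over a library-specific factor. FASLG and TNFSF14 are not among them, so the log2 values served only as an alternative.

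All genes were tested in 1 quasi-likelihood fit over the 9 libraries with edgeR 4.0.16 (R 4.3.3), TMM scaling and filterByExpr, which kept 12036 genes. The common biological coefficient of variation was 0.0887. Calls needed an adjusted p (Benjamini-Hochberg) under 0.05, and every adjusted p is from this test unless another tool is named. SE is on the log2 scale, values after ± without a name are SD for levels and SE for fold changes, and n = 3 per group. Alternatives used DESeq2 1.42.0, limma 3.58.1, other scalings and filters, a replicate block, 2 groups at a time and each library left out.

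Positions are from GENCODE release 29 (GRCh38), promoters from RefSeq (GRCh38.p14), with a window for 7 of the 10 ligands, and 3′ untranslated regions from GENCODE. The starts differ between these sources. The TNFSF4 and TNFSF14 windows lie inside the printed gene positions, and those of TNFSF10, FASLG and LTB overlap them in part. Named genes were the 10 ligands, further ligands and receptors called against 0 h, the 3 called genes with the largest change in each direction of the other lists, the 3 genes most like each ligand of at least 5 CPM, and called neighbours within 100 kb. The ligands, the lists and these rules were chosen with earlier results of these data known.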

Additional observations from a re-analysis of the deposited data

Results flagged for a closer look

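The effects at 5 h and at 12 h, taken against the same 0 h libraries, differed for 8 of the 10 ligands. This is by the direct edgeR test of 12 h against 5 h, which called 36.1% of all genes tested. TNF passed the filter only through its 5 h libraries, so its difference had to appear. The difference in log2 fold change was -3.76 for TNF (adjusted p = 4.53e-06), -2.08 for LTA (2.29e-05), -1.96 for TNFSF14 (8.33e-07), -1.57 for TNFSF10 (4.61e-11), -1.50 for FASLG (0.00413), -0.90 for LTB (0.0147), -0.70 for TNFSF8 (0.0199) and -0.35 for CD40LG (0.0119). In all of these the effect was smaller or reversed at 12 h. CD70 and TNFSF4 had no such difference past the threshold.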

How the results depend on the processing

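Of 502 values of single ligands recomputed under alternatives, 485 kept their direction and their side of the threshold, 13 lost a call, 1 gained one and 3 reversed. The losses and the gain are given with each gene above, and the cause was not tested. The reversed values are those of TNFSF8 at 12 h against 0 h, which is not called: -0.055 with total counts only, -0.03 without 0 h replicate 1 and -0.18 without 12 h replicate 3. Over all libraries left out in turn, this value ran from -0.18 to 0.25. Requiring at least 2-fold as well left 5 of the 8 ligand calls at 12 h against 5 h, and 1437 genes (663 higher, 774 lower) at 5 h, 1440 (702 and 738) at 12 h and 520 (250 and 270) at 12 h against 5 h. With 1 library left out, 9 to 10 ligands were called at 5 h, 7 to 8 at 12 h and 6 to 8 at 12 h against 5 h.

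Scaling by total counts moved the median gene to -0.12 at 5 h and -0.109 at 12 h. No ligand call changed with it. Deviations of same-numbered libraries correlated at -0.22 to 0.313 over 9876 genes, and those of differently numbered ones at -0.402 to 0.303. Between 5 h and 12 h, same-numbered libraries gave 0.313, 0.301 and 0.092, and the others -0.402 to 0.212. Whether the numbers pair libraries is therefore not known. With the replicate number as a block, 10, 8 and 8 ligands and 5981, 6176 and 4285 genes were called in the 3 comparisons. The block changed no ligand call, and of the 79 calls of other named genes described below only that of CSNK2B at 5 h was lost. Not all alternatives gave a value: the log2 table lacks FASLG and TNFSF14, and TNF and FASLG failed the filter with only 0 h and 12 h in the fit. For 79 calls of other named genes, recomputed after the data were seen, 16 were lost under some alternative and none reversed. The 79 are the calls against 0 h that the naming rules picked. TNF at 6 to 87 counts, FASLG at 1 to 77 and CD70 at 10 to 59 counts per group are limited by depth.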
